A study of Homo sapiens with 4 samples.

Results

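Cadherins and the catenins that bind them were followed in the RNA-seq of HGC-27 cells, a line from a lymph node metastasis of a poorly differentiated human gastric carcinoma. The 10 genes, 7 cadherins (CDH1, CDH2, CDH3, CDH4, CDH6, CDH11 and CDH13) and 3 catenins (CTNNA1, CTNNB1 and CTNND1), were taken by symbol, and all 10 were among the 25559 symbols counted. Control cells, which the labels call wildtype, were compared with cells in which RUNX3 had been knocked out (RUNX3 KO), each as 2 libraries of polyadenylated RNA from culture. RUNX3 KO cells had been made with a lentivirus carrying Cas9 and a guide against RUNX3, selected with puromycin and cloned from single cells. The number of clones, whether control cells went through the same steps, and whether replicates were separate cultures are not given in the sources used here, so p-values measure only the spread between these libraries, which may be technical. Counts on genes ranged from 11731401 to 12110876 per library. The comparison asks whether RUNX3 KO cells changed which cadherins they express, since a switch between cadherins accompanies changes of cell adhesion in metastasis.

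Cadherins are calcium-dependent adhesion molecules whose outer domains bind cadherins of a neighbouring cell. Inside the cell, their tail binds p120-catenin (CTNND1) close to the membrane and beta-catenin (CTNNB1) farther along. Beta-catenin in turn binds alpha-catenin (CTNNA1), which links the complex to actin. Type I cadherins include E-cadherin (CDH1), N-cadherin (CDH2), P-cadherin (CDH3) and R-cadherin (CDH4), and type II cadherins include K-cadherin (CDH6) and OB-cadherin (CDH11). T-cadherin (CDH13) is held in the membrane by a lipid anchor and lacks the tail that binds catenins, so it is not a classical cadherin in the strict sense. In epithelial-mesenchymal transition (EMT), loss of E-cadherin with gain of N-cadherin is known as the cadherin switch.

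RUNX3, the targeted gene, had 351 and 308 counts in control cells and 225 and 185 in RUNX3 KO cells, and differed by -0.70 on the log2 scale (SE 0.0961, adjusted p = 1.43e-09). This and the adjusted p-values that follow are from the quasi-likelihood test of edgeR, adjusted over all tested genes by the Benjamini-Hochberg method. The transcript was lower in both RUNX3 KO libraries but still present, and without RUNX3 KO replicate 2 the call was lost (adjusted p = 0.0649). The study reported checking the deletion in mRNA and protein after cloning, with an immunoblot that showed no RUNX3 protein in RUNX3 KO cells. Stomach markers were close to absent and epithelial markers low. Of 6 gastric markers, 5 had no count in any library and the other, MUC6, had a single count. Among 6 epithelial markers EPCAM had at most 1 count and KRT19 none, KRT8 and CLDN7 were higher in RUNX3 KO cells, and the summed level of the 6 was 2.54 to 3.47 CPM in control cells and 9.66 to 9.90 CPM in RUNX3 KO cells (CPM, counts per 1e6 of the TMM-scaled library). The 4 mesenchymal markers summed to 5026 to 5054 CPM in control cells and 2956 to 3028 CPM in RUNX3 KO cells. Of 4 endothelial markers PECAM1, CDH5 and KDR were at 0.

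N-cadherin was at the floor in HGC-27 cells and E-cadherin low, and CDH6 was the most abundant of the 7 member cadherins. In RUNX3 KO cells CDH3 rose 4.63-fold from a low level, CDH6 rose 1.59-fold, and CDH1 rose 1.70-fold but from no more than 32 counts in any library. CTNNA1 rose 1.20-fold. CTNNB1, CTNND1 and CDH13 did not pass the test, and CDH2, CDH4 and CDH11 had too few counts to be tested. Among the 7 tested genes, 4 were higher and 0 lower at an adjusted p under 0.05 by edgeR, while 24.5% of all 12967 tested genes were higher and 24.4% lower by the same call (48.9% in either direction). By the criteria of the study, a fold change of at least 2 and p of at most 0.05, 1 member, CDH3, was higher (2.11% of all tested genes were) and 0 were lower (4.01%). The count of lower members was also 0 at an unadjusted p under 0.05 and by DESeq2, which called 3 members higher and not CDH1 (adjusted p = 0.273), and 14.1% of all tested genes higher and 14.4% lower. In bulk RNA, fewer cells that express a gene and less RNA of it per cell cannot be told apart. In each of the 4 genes that rose, the CPM of the groups did not overlap, which held in that direction for 36.3% of all tested genes.

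**Figure D1:**
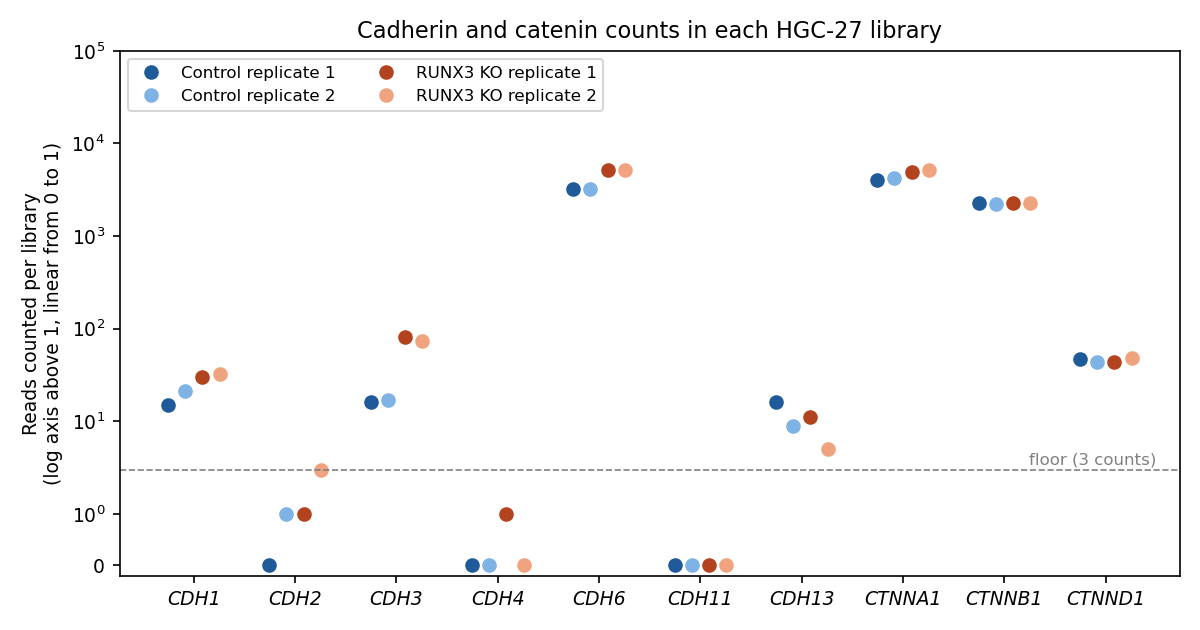
Reads counted on each of the 10 genes in the 4 libraries (vertical axis logarithmic above 1 and linear from 0 to 1; blue, control; red, RUNX3 KO; dashed line, floor of 3 counts). CDH6, CTNNA1 and CTNNB1 lie far above the other genes in every library, whereas CDH2, CDH4 and CDH11 do not exceed 3.

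CDH6 (chromosome 5, 31193793 to 31329253 in hg19, plus strand) encodes K-cadherin, known from the developing kidney and from several carcinomas. It had 3193 and 3182 counts in control cells and 5103 and 5125 in RUNX3 KO cells. Both RUNX3 KO libraries were therefore higher, and replicates of a condition were nearly equal. The level went from 270 ± 0.579 to 429 ± 4.28 CPM (SD, n = 2 each), with a log2 fold change of 0.67 (SE 0.0289) and an edgeR adjusted p of 1.13e-36. Scaled to length, this was 31.6 ± 0.0679 and 50.3 ± 0.502 RPKM (reads per kilobase of the MANE Select transcript per 1e6 scaled counts; SD, n = 2). CDH6 alone made up 97.6% ± 0.156 of the summed RPKM of the 7 cadherins in control cells and 95.9% ± 0.183 in RUNX3 KO cells (SD, n = 2 each).

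CDH3 (chromosome 16, 68670092 to 68761371, plus strand) encodes P-cadherin, a cadherin of basal epithelia. It had 16 and 17 counts in control cells and 81 and 74 in RUNX3 KO cells. The 4 counts formed 2 clearly separate pairs. The level rose from 1.40 ± 0.0603 to 6.51 ± 0.50 CPM (SD, n = 2 each), with a log2 fold change of 2.21 (SE 0.242) and an edgeR adjusted p of 3.40e-13. CDH3 kept its call in every alternative run here, with log2 fold changes from 2.09 to 2.29. Even after the rise it stood at 1.46 ± 0.112 RPKM (SD, n = 2), against 50.3 RPKM for CDH6.

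CDH1 (chromosome 16, 68771195 to 68869440, plus strand) encodes E-cadherin, the cadherin of mature epithelia and a tumor suppressor of diffuse gastric cancer. It had 15 and 21 counts in control cells and 30 and 32 in RUNX3 KO cells. The groups did not overlap, but control replicates lay further apart than RUNX3 KO replicates. The level went from 1.53 ± 0.360 to 2.60 ± 0.0848 CPM (SD, n = 2 each), with a log2 fold change of 0.77 (SE 0.293) and an edgeR adjusted p of 0.0238. Its adjusted p ranged from 0.0227 to 0.273 over the alternatives. The call was lost with DESeq2 (adjusted p = 0.273), without a filter on low counts (0.0642), and on leaving out control replicate 1 (0.238), RUNX3 KO replicate 1 (0.135) or RUNX3 KO replicate 2 (0.172). The log2 fold change was 0.55 without control replicate 1 and 1.03 without control replicate 2.

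N-cadherin, R-cadherin and OB-cadherin were at the floor, set at 3 counts in each library. CDH2 (chromosome 18, 25512843 to 25757910, minus strand) had 0 and 1 counts in control cells and 1 and 3 in RUNX3 KO cells. CDH4 (chromosome 20, 59827317 to 60515673, plus strand) had a single count, in RUNX3 KO replicate 1. CDH11 (chromosome 16, 64977656 to 65160015, minus strand) had 0 counts in all 4 libraries, where 3 counts correspond to 0.25 to 0.254 CPM. No fold change can be given for these genes, and a difference between conditions was not detectable at this depth.

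CDH13 (chromosome 16, 82660570 to 83834245, plus strand) encodes T-cadherin. It had 16 and 9 counts in control cells and 11 and 5 in RUNX3 KO cells, and the groups overlapped. The log2 fold change was -0.65 (SE 0.447, edgeR adjusted p = 0.232), and with each library left out in turn it ranged from -1.32 to -0.18. Of the exonic bases of its MANE Select transcript, 29.9% lie opposite the antisense gene CDH13-AS2, and the sources used here do not say whether counting used strand. Antisense genes also lie opposite smaller parts of the same exons of CDH1 (4.41%), CDH3 (4.94%) and CDH6 (1.46%).

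Because CDH2 was at the floor in both conditions, a ratio of E-cadherin to N-cadherin could not be followed between conditions. Summed over the 2 libraries of a condition, CDH1 had 36 counts against 1 of CDH2 in control cells, and 62 against 4 in RUNX3 KO cells. CDH1 thus exceeded CDH2 in each library, with both far below CDH6. Relative counts were therefore taken against CDH6, a reference chosen after its values were seen. The log2 ratio of CDH3 to CDH6 counts was -7.63 and -7.54 in control libraries and -5.98 and -6.11 in RUNX3 KO libraries, a difference of 1.54, or 2.91-fold. The groups were separate, and the exact two-sided permutation test gave p = 0.333, the smallest value that 2 libraries against 2 allow. For CDH1 the log2 ratio was -7.72 and -7.23 in control cells and -7.40 and -7.32 in RUNX3 KO cells. These groups overlapped (difference 0.12, exact permutation p = 1), and without control replicate 1 the difference was -0.13. CDH13 relative to CDH6 differed by -1.37 (exact permutation p = 0.333), resting on 25 counts in control and 16 in RUNX3 KO cells. That difference was -0.80 without RUNX3 KO replicate 2 and -1.93 without RUNX3 KO replicate 1. Over the 3 ratios, the Benjamini-Hochberg adjusted values were 0.5 for CDH3 and CDH13 and 1 for CDH1.

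CDH3 and CDH1 are neighbours, with 9823 bases between the end of CDH3 and the start of CDH1. The RPKM of CDH3 over that of CDH1 was 1.15 and 0.875 in control libraries and 2.92 and 2.50 in RUNX3 KO libraries. As a share of the summed RPKM of the 7 cadherins, CDH3 went from 0.969% ± 0.0424 to 2.79% ± 0.181, and CDH1 from 0.978% ± 0.231 to 1.03% ± 0.0459 (SD, n = 2 each). The share of CDH3 was thus separate between conditions, while that of CDH1 differed by less than the spread between control replicates.

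Among 12 further type I and type II cadherins, 5 had no count in any library and 5 were tested, of which CDH10 and CDH18 passed the filter on low counts only through the condition where they were high, so their calls are left out. Of the other 3, CDH24 was lower (24.4% of all tested genes were), and CDH7 and CDH8 did not pass. CDH24, a type II cadherin, was the only one of them above 100 counts. It had 549 and 556 counts in control cells and 386 and 396 in RUNX3 KO cells (log2 fold change -0.51 with SE 0.0705, edgeR adjusted p = 1.36e-09). Per length it was second to CDH6. Of the summed RPKM of the 18 type I and type II cadherins examined, CDH6 held 67.5% and 67.1% in control libraries and 79.9% and 79.6% in RUNX3 KO libraries. CDH24 held 29.0% and 29.3% in control libraries and 15.1% and 15.4% in RUNX3 KO libraries. The sum itself was 46.9 and 47.1 RPKM in control cells and 63.4 and 62.7 RPKM in RUNX3 KO cells.

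**Figure D2:**
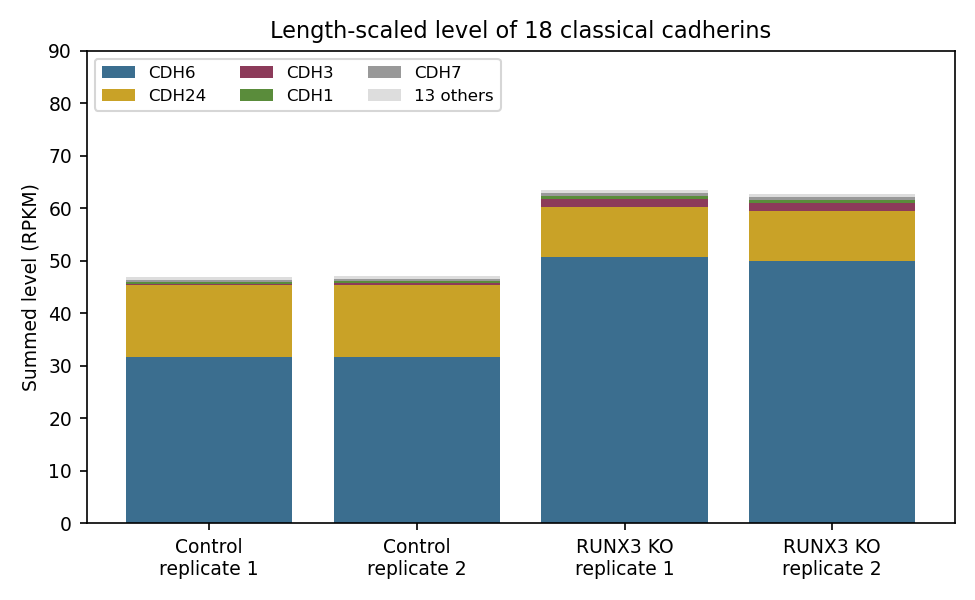
Summed RPKM of 18 type I and type II cadherins in each library, stacked by gene, with the least abundant genes joined in light grey. CDH6 takes the largest part of every bar, CDH24 is smaller in both RUNX3 KO bars, and CDH1 and CDH3 form thin layers.

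CTNNA1 (chromosome 5, 137946656 to 138270723, plus strand) encodes alpha-E-catenin. It had 4012 and 4243 counts in control cells and 4928 and 5104 in RUNX3 KO cells, with no overlap. The level rose from 350 ± 13.9 to 421 ± 4.97 CPM (SD, n = 2 each), with a log2 fold change of 0.27 (SE 0.0284) and an edgeR adjusted p of 9.94e-14. It was the most abundant of the 10 genes per length, at 93.2 ± 3.71 RPKM in control cells and 112 ± 1.32 RPKM in RUNX3 KO cells (SD, n = 2).

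CTNNB1 (chromosome 3, 41236232 to 41301587, plus strand) encodes beta-catenin, which also acts as the transcriptional effector of canonical Wnt signaling. It had 2280 and 2208 counts in control cells and 2270 and 2282 in RUNX3 KO cells. The groups overlapped fully. At 190 ± 4.26 and 191 ± 1.78 CPM (SD, n = 2 each), CTNNB1 had a log2 fold change of 0.0072 (SE 0.0351, edgeR adjusted p = 0.887). The RPKM of CDH6 over that of CTNNB1 went from 0.60 and 0.618 in control libraries to 0.964 and 0.963 in RUNX3 KO libraries.

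CTNND1 (chromosome 11, 57520715 to 57587018, plus strand) encodes p120-catenin. It had 47 and 44 counts in control cells and 44 and 48 in RUNX3 KO cells, which overlapped (log2 fold change 0.0025, SE 0.214, edgeR adjusted p = 0.993). Its level is uncertain because of overlapping genes. The tables list a read-through gene, TMX2-CTNND1, at 0 counts in every library, and a counter that reports ambiguous reads, as these tables do, gives reads on shared exons to no gene. In the GENCODE annotation, 78.6% of the exonic bases of the MANE Select transcript of CTNND1 are shared with ENSG00000288534, a gene on the same strand that runs from the start of TMX2 into CTNND1. Ambiguous reads were 0.877% to 0.923% of all counts per library, and TMX2, at the other end, had 1284 to 1534 counts. How many reads CTNND1 lost to this overlap was not tested.

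Ordered by RPKM in control cells, CTNNA1 came first, then CTNNB1 (51.9 ± 1.16), CDH6, CTNND1 (0.578 ± 0.0268), CDH1 (0.317 ± 0.0748), CDH3 (0.314 ± 0.0136) and CDH13 (0.134 ± 0.0532; SD, n = 2 each). CDH1 and CDH3 did not differ beyond their spread there. In RUNX3 KO cells CDH3 moved ahead of CTNND1 and CDH1, and CTNND1 (0.579 ± 0.0281) and CDH1 (0.541 ± 0.0176; SD, n = 2 each) were close to each other. When all annotated exons were counted as length, CDH6 (21.7 RPKM in control cells) came before CTNNB1 (16.2 RPKM), so the order of these genes depends on the transcript length assumed. The place of CTNND1 is also uncertain, because reads on exons shared with an overlapping gene may not have been counted.

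**Figure D3:**
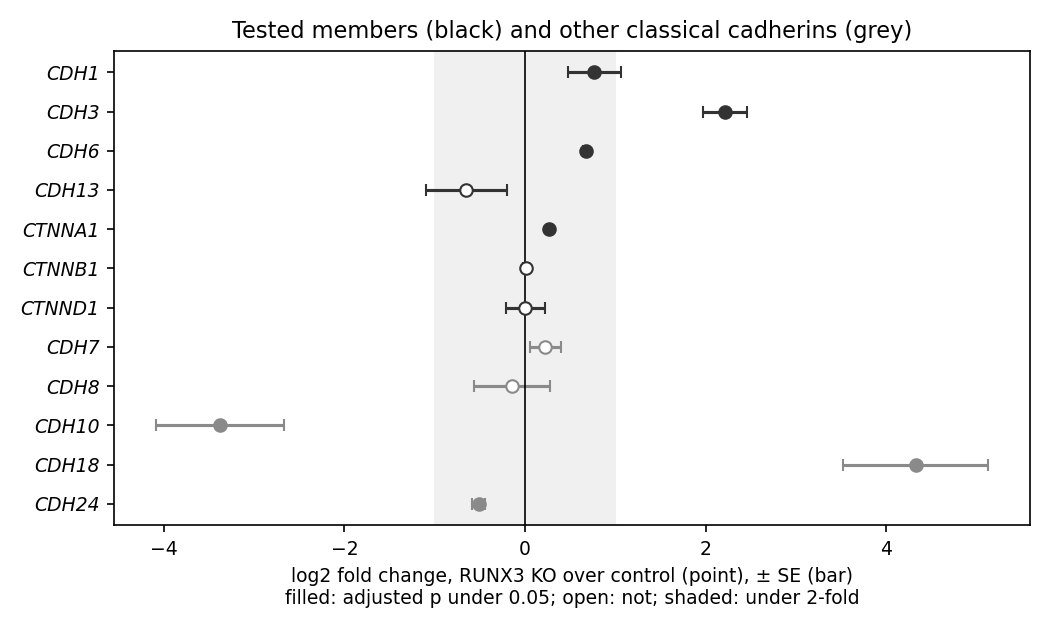
Log2 fold change of RUNX3 KO over control (points) with its SE (bars) for the 7 tested members in black and 5 other tested classical cadherins in grey; filled points have an adjusted p under 0.05. CDH3 at 2.21 lies outside the shaded range of less than 2-fold. CDH10 and CDH18 are drawn filled, but they passed the filter on low counts only through the condition where they were high. Their calls are left out, and their points rest on groups with at most 1 count per library.

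Promoter sequences were looked up for the 10 genes in the RefSeq table on GRCh38.p14, which spans 250 bases before to 50 bases after each annotated start. It held 4 of the 10, with 1 window for CTNNB1, 4 for CTNNA1, 2 for CDH2 and 2 for CDH4. CDH1, CDH3, CDH6, CDH11, CDH13 and CTNND1 had no entry. The windows were searched on both strands for the RUNX motif, spelled TGTGGT or TGCGGT, and for the E-box CAGGTG, bound by SNAI and ZEB repressors. Windows are shown for the alpha-catenin start that holds a RUNX motif, for beta-catenin, which did not pass the test, and for N-cadherin, which was at the floor. Capitals mark the motif.
CTNNA1, chr5:138875150-138875449, plus strand: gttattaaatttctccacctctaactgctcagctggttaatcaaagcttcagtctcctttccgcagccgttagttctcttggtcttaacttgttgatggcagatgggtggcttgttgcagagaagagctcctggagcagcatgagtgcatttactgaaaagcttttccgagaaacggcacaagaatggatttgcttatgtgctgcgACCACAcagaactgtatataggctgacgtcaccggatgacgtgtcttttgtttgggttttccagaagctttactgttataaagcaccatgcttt
CTNNB1, chr3:41199255-41199554, plus strand: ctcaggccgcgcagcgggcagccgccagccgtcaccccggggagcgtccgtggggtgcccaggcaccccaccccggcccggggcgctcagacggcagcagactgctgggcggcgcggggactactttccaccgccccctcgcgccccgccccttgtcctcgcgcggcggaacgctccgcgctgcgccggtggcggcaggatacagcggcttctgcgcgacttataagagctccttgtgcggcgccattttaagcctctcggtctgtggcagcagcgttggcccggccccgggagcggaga
CDH2, chr18:28177081-28177380, minus strand: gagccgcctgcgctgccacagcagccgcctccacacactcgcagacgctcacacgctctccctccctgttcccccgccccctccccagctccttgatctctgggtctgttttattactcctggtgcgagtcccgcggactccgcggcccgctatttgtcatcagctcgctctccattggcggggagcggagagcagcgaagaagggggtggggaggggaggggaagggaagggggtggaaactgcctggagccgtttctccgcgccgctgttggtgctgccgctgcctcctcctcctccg

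Read on the opposite strand, the capitals in CTNNA1 spell TGTGGT, at base 207 of the window, 44 bases before the start. Neither the CTNNB1 window nor the CDH2 window held any of the searched letters. The E-box was found at a CDH4 start, 16 bases before it. A RUNX motif was thus found in 1 of the 9 windows of these genes, and in none of the other CTNNA1 windows. Of all 35116 windows in the table, 19.6% held a RUNX motif and 20.6% the E-box on either strand. The windows also differed in base composition: CTNNB1 had 39 CpG dinucleotides and 74% G and C, CDH2 had 23 and 67%, and the CTNNA1 start shown had 8 and 44.7%, with a median of 14 and 58.7% over all windows. Another start of CTNNA1, at chr5:138753175-138753474, had 37 CpG dinucleotides and no searched motif. A match is a run of letters and not a bound site.

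Each member was also set against the genes around it on its chromosome. For each member the 20 nearest tested genes on either side were taken, from the 10925 tested genes with a position in the annotation. Around CDH6, 29 of 40 neighbours were higher and 7 lower, against 24.5% and 24.4% of all tested genes. CDH18 among the higher and CDH10 among the lower passed the filter on low counts only through the condition where they were high. Over the 34.8 Mb that the neighbours span, their median log2 fold change was 0.38. CDH6, at 0.67, lay 0.29 above that median, and 13 of 40 neighbours lay at least as far from it in either direction. Its neighbours GOLPH3 (0.61) and C5orf22 (0.65) moved about as much, DROSHA was at 0.36, and PDZD2 at -1.31. What part the region has in the rise of CDH6 was not tested.

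Around CDH3 and CDH1 the genes moved little and in both directions. The 40 neighbours of CDH3 had a median log2 fold change of 0.11, with 14 higher and 8 lower, and CDH3 lay 2.1 above it. None of its 40 neighbours lay as far from the median in either direction. The tested genes on the outer sides of the pair, ZFP90 and HAS3, were at -0.28 and 0.55. The neighbours of CTNNA1 had a median of 0.07 (14 higher, 6 lower), and 20 of 40 lay at least as far from it, in either direction, as CTNNA1. Those of CTNNB1 had a median of -0.10 (2 higher, 8 lower), and those of CTNND1 -0.0023 (9 in each direction).

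Genes that act with cadherins and catenins moved in both directions, and their counts are to be read against the 48.9% of all tested genes that were called. Of 22 further catenins and adherens junction partners, 18 were tested, and their median was 0.15 on the log2 scale. Leaving out JUP, which passed the filter on low counts only through the RUNX3 KO libraries, 8 were higher and 7 lower. MLLT4 (now AFDN), which encodes afadin, the link between nectins and actin, had 213 and 182 counts in control cells and 468 and 553 in RUNX3 KO cells (log2 fold change 1.36, SE 0.0876, edgeR adjusted p = 6.04e-25). Its groups were well apart. PVRL2, now NECTIN2, an afadin-binding adhesion molecule, rose by 0.51 on the log2 scale, and so did PKP4, a relative of p120-catenin. ARVCF, another p120 relative that binds the cadherin tail, fell by 0.64, the actin-binding LIMA1 fell by 0.46, and JUB, now AJUBA, fell by 0.36. JUP, which encodes plakoglobin, a relative of beta-catenin that can take its place on cadherins, had 3 and 6 counts in control cells and 21 and 27 in RUNX3 KO cells and is given without a test. JUP was singled out after its values were seen, and its counts were far below those of CTNNB1 in each library.

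In the destruction complex, which marks beta-catenin for degradation, all 11 genes were tested, 5 were higher and 2 lower (median 0.09). Of all tested genes, 24.5% were higher and 24.4% lower. AXIN2, a scaffold of the complex and a transcriptional target of beta-catenin, had 1642 and 1650 counts in control cells and 898 and 920 in RUNX3 KO cells. Both RUNX3 KO libraries were lower (log2 fold change -0.87, SE 0.0446, edgeR adjusted p = 2.05e-31), whereas CTNNB1 mRNA did not pass the test. The other gene that fell was APC2 (-0.26). AXIN1 (0.29), FAM123B, now AMER1 (0.27), and FBXW11 (0.24) were higher.

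Of 14 genes for maturation, shedding and turnover of cadherins, 6 were higher and 2 lower (median 0.14), where 24.5% of all tested genes were higher and 24.4% lower. NCSTN, a subunit of gamma-secretase, rose by 0.71 on the log2 scale, while APH1B, another subunit, fell by 0.99. FURIN, a protease that removes the cadherin propeptide, rose by 0.52, and RAB11A, which acts in recycling of E-cadherin, rose by 0.34. NUMB, an endocytic adaptor, fell by 0.21.

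Among 11 transcriptional repressors of CDH1, 7 were tested, 5 were lower and 1 was higher (median -0.39). Of all tested genes, 24.4% were lower and 24.5% higher. SNAI2, which encodes Slug, had 299 and 309 counts in control cells and 88 and 72 in RUNX3 KO cells (log2 fold change -1.94, SE 0.119, edgeR adjusted p = 2.89e-26). Its groups were far apart. SNAI1 (-0.50), TCF4 (-0.44), TWIST1 (-0.39) and ZEB1 (-0.26) were lower too on the log2 scale, and TCF3 (0.13) was higher. CDH1 itself, the target of these factors, had 15 and 21 counts in control cells and 30 and 32 in RUNX3 KO cells. Whether the changes in these factors bear on CDH1 was not tested.

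Of 8 epithelial regulators only GRHL1 was tested, and it did not pass (0.01). Of the epithelial markers KRT8 had 19 and 11 counts in control cells and 72 and 81 in RUNX3 KO cells (2.33, edgeR adjusted p = 1.90e-13), and CLDN7 was at 0.75 (adjusted p = 0.0406). KRT18, the partner of KRT8, had 0 counts in both control libraries and 2 and 14 in RUNX3 KO libraries, and was not tested. All 4 mesenchymal markers fell, where 24.4% of all tested genes were lower. Their log2 fold changes were -0.75 for VIM, -3.01 for FN1, -1.82 for S100A4 and -0.26 for ZEB1, which is also on the repressor list. VIM remained the most abundant of them, with 33828 and 35307 counts in RUNX3 KO cells.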

How the data were processed

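Polyadenylated RNA from HGC-27 control and RUNX3 KO cells was sequenced as 2 libraries per condition. The authors deposited raw counts per gene symbol for each library. The submitters' processing notes name bcl2fastq, HISAT2 2.1.0 and HTSeq with hg19, whereas the methods of the study name STAR and featureCounts, and neither gives the strand setting. The last 5 rows of each table name no gene (unaligned, ambiguous and similar reads, 25.9% to 28.1% of all counts) and were left out.

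Counts were fitted over all genes in edgeR 4.0.16 (R 4.3.3) with TMM scaling, filterByExpr (minimum count 10, minimum total 15, 12967 of 25559 symbols kept) and its quasi-likelihood test. Benjamini-Hochberg adjusted p-values, over all tested genes, were called under 0.05. The study used a fold change of at least 2 and p of at most 0.05, and counts under that rule are given too. The biological coefficient of variation was 1.45%. With 11731401 to 12110876 counts per library, 3 counts were taken as the floor, which covers counting error only. RPKM used the MANE Select transcript length in GENCODE v44 lifted to hg19. Coordinates are hg19 except for promoters (RefSeq, GRCh38.p14). Members were taken by symbol, and other genes were named as the up to 3 largest rises and falls of each list with a mean of at least 50 counts. JUP, DCHS2, CDHR3, PCDH8, TWIST1, CDH7, CDH8, CDH10, CDH18, GRHL1, the epithelial, gastric, endothelial and ZEB1 markers, and the genes near members fall outside that rule and were named after their values were seen. The members and lists were chosen with earlier results of these data known. Ratios of cadherins were planned against CDH2 and taken against CDH6. Alternatives were other scalings, DESeq2 1.42.0, limma-voom 3.58.1, other filters, a larger prior count, the replicate number as a block, and leaving out each library. The fit was tested on simulated data. Same-numbered libraries did not deviate together (correlation -0.0051 over 10869 genes). Replicates differed by little more than counting error (chi-square per degree of freedom 1.22 in control and 1.18 in RUNX3 KO cells). The correlation therefore cannot decide whether the numbers pair the libraries.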

Additional observations from a re-analysis of the deposited data

How the results depend on the processing

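CDH3, CDH6 and CTNNA1 kept their direction and their call in 13 of 13 alternatives. The number of members that were higher was 4, and 3 with DESeq2 and without a filter on low counts, CDH1 being the gene lost. With each library left out in turn it ranged from 3 to 4, and the number at a fold change of 2 from 1 to 2 (2 without control replicate 2, when CDH1 passed too). RUNX3 ranged from -0.86 to -0.55 on the log2 scale in these fits. The genes called in the 7 partner lists, markers and epithelial regulators left out, were 24 lower and 26 higher (21 and 24 without CDH10, CDH18, DCHS2, PCDH8 and JUP, which passed the filter on low counts only with the condition where they were high), and ranged from 14 to 22 lower and from 14 to 26 higher, with 14 lower without either RUNX3 KO replicate and 14 higher without RUNX3 KO replicate 2. Each fit without a library leaves 1 condition with 1 library, which is assumed to vary like the other condition. The difference in the log2 ratio of CDH1 to CDH6 ranged from -0.13 to 0.36 with each library left out, that of CDH13 to CDH6 from -1.93 to -0.80, and that of CDH3 to CDH6 was 1.42 at a prior count of 2. Values close to 0 changed sign: CTNNB1 was -0.013 by library size alone and by upper-quartile scaling, and -0.018 to 0.031 with each library left out. CTNND1 was -0.017 by library size alone, -0.018 by upper-quartile scaling, -0.0040 with 10 counts in every library, and -0.048 to 0.053 with each library left out. Library size alone moved each of the 7 tested members by -0.020, upper-quartile scaling by -0.021 to -0.020, and the filter of 10 counts each of 6 by -0.0065, so these turns of sign are a shift common to all members. The cause of the changes on leaving out a library was not tested. With the replicate number as a block, 4 members were higher, CDH3 was at 2.21 and CDH6 at 0.67, and no call among the members changed. Over all genes the number called fell from 3158 lower and 3183 higher to 1863 and 1829 with DESeq2, and to 1378 and 1285 without RUNX3 KO replicate 2. The 10-count filter gave no value for CDH13. The planned ratios to CDH2 could not be computed, since CDH2 had at most 3 counts in every library. Depth limits the members below 50 counts most.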

Other observations

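Cadherin relatives outside type I and type II were also measured. Of 21 FAT, DCHS, CELSR and other atypical cadherins, 10 were tested. Leaving out DCHS2 and CDHR3, which did not reach the filter in both libraries of RUNX3 KO cells, 4 were lower, 2 higher and 2 not called, where 24.4% of all tested genes were lower and 24.5% higher. FAT1 had 4984 and 4792 counts in control cells and 4810 and 4455 in RUNX3 KO cells, more counts than CDH6 in control cells and fewer in RUNX3 KO cells. DCHS1, a protocadherin that binds FAT4 in planar polarity, had 189 and 155 counts in control cells and 31 and 45 in RUNX3 KO cells (log2 fold change -2.19, SE 0.167, edgeR adjusted p = 9.67e-21). Its relative DCHS2, singled out after its values were seen and given without a test, had 60 and 57 counts against 12 and 8. CELSR2 rose by 0.63 and CELSR3 by 0.30 on the log2 scale, while CELSR1 fell by 0.26 and FAT1 by 0.090.

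Of 11 non-clustered protocadherins, 6 were tested. Leaving out PCDH8, 2 were higher and 3 not called, where 48.9% of all tested genes were called. PCDH18 had 831 and 853 counts in control cells and 1785 and 1779 in RUNX3 KO cells, a rise of 1.07 on the log2 scale, and PCDH9 rose by 0.70. PCDH8 passed the filter on low counts only through the control libraries and is given without a test. It had 58 and 52 counts in control cells and 1 and 0 in RUNX3 KO cells.

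CDH10 and CDH18, type II cadherins on the same chromosome as CDH6, passed the filter on low counts only through the condition where they were high, and their values are given without a test. CDH18 had 0 and 1 counts in control cells and 11 and 14 in RUNX3 KO cells. CDH10 had 11 and 12 counts in control cells and 1 in each RUNX3 KO library.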
